A study of Mus musculus with 86 samples.

Results

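At 12.5 days post coitum the mouse metanephros holds Foxd1-positive stroma and Six2-positive nephron progenitors side by side, and the cells that carried only 1 of these 2 transcription factors were set against each other. Cells with a Mal2 value of 100 RPKM or more (a read count corrected for gene length and sequencing depth) were dropped first. A Foxd1-only cell had Foxd1 at 1 RPKM or more and Six2 below 1, and a Six2-only cell had Six2 at 1 RPKM or more and Foxd1 below 1. This gave 40 of 86 cells, 25 Foxd1-only and 15 Six2-only. Of the other 46 cells, 31 held both genes, 8 held neither and 7 had high Mal2. Every other gene of the table was then described between the 25 and the 15 cells. The cells came from wild type embryos of a mixed background, male and female kidneys together, at Theiler stage 20. Kidneys were pooled and dissociated with trypsin, single cells were caught on a Fluidigm C1 chip and inspected under the microscope, and cDNA made with the SMARTer kit was turned into Nextera XT libraries for an Illumina HiSeq2500. All cells were 1 pool and so 1 sample, which gives no replicate of either cell class. No difference was tested, ± gives the SD over the 25 Foxd1-only or the 15 Six2-only cells, and a cell is not a replicate of a condition.

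Nephron progenitors form a cap around the tips of the branching ureteric bud, where Six2 keeps them self-renewing until Wnt signals induce them to become epithelium. Foxd1-positive stroma lies around these caps and gives rise to the interstitial fibroblasts, mesangium and pericytes of the later kidney. Retinoic acid made by stroma, the Fat4 cadherin and secreted matrix and growth factors are known routes by which stroma acts on the progenitors and the bud.

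Foxd1-only cells held Crabp1, Tmtc4, Anxa2, Nfib, Pdgfra and the type I collagen gene Col1a2 at higher levels, with log2 ratios between 3.01 for Col1a2 and 4.96 for Crabp1. Six2-only cells held Crym, Eya1, Cldn9, Gfra1 and Moxd1 at higher levels, with log2 ratios between -2.97 for Gfra1 and -5.55 for Moxd1. Of the stroma markers 8 of 18, and of the nephron progenitor markers 10 of 18, were past a rule of size in the direction of their names, a rule that 3.36% of all measured genes met on the Foxd1-only side and 3.64% on the Six2-only side. Each of these genes still overlapped between single cells of both classes.

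The cells were selected on Foxd1, Six2 and Mal2, so the values of these genes are a description. Foxd1, on chromosome 13 (99124200 to 99126660, mm9), lay between 1.24 and 56.4 RPKM in Foxd1-only cells (median 13.7, mean 17.3 ± 13.9 SD), and was listed at 0 in 12 of 15 Six2-only cells with a highest value of 0.527. Six2, on chromosome 17 (86083608 to 86087594), was listed at 0 in 20 of 25 Foxd1-only cells with a highest value of 0.527 RPKM, and lay between 5.94 and 47.6 RPKM in Six2-only cells (median 35.7, mean 30.8 ± 14.5 SD). Just inside the Foxd1 limit stood Foxd1-only cells at 1.24 and 1.37 RPKM, and just outside it Six2-only cells at 0.527 and 0.413. On the Six2 side the nearest Six2-only cell was at 5.94 RPKM, cells with both genes began at 1.50 and 4.75, and Foxd1-only cells ended at 0.527 and 0.365. Mal2 reached 3.41 RPKM at most in the cells kept and began at 1219 in those dropped. From the size of the steps between low values, 3 reads of Six2 would correspond to 0.362 to 2.17 RPKM in the Foxd1-only cells (median 0.715), and 3 reads of Foxd1 to 0.312 to 4.00 RPKM in the Six2-only cells (median 0.660). In the shallowest cells a listed 0 therefore does not show that the gene was below the limit.

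**Figure D1:**
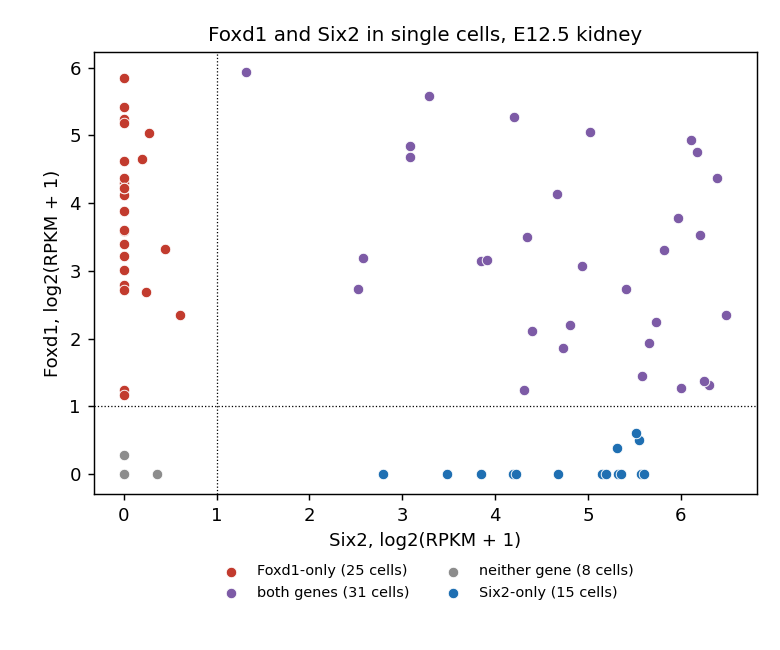
Foxd1 (vertical axis) and Six2 (horizontal axis) in single cells, after the 7 cells with high Mal2 were dropped, both as log2(RPKM + 1); dotted lines mark 1 RPKM. The 25 Foxd1-only cells lie along the left edge, the 15 Six2-only cells along the bottom, and 31 cells with both genes fill the space between.

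The names of the cell classes were checked against 18 stroma and 18 nephron progenitor markers, neither list holding Foxd1 or Six2. A gene counts as detected in a cell at 1 RPKM or more. Foxd1-only cells detected 10 to 16 stroma markers (median 14) and 3 to 14 progenitor markers (median 6), while Six2-only cells detected 7 to 13 stroma markers (median 8) and 8 to 16 progenitor markers (median 14). More stroma than progenitor markers were present in 24 of 25 Foxd1-only cells, and more progenitor than stroma markers in 11 of 15 Six2-only cells, with 1 Six2-only cell even. Cell 68 of the Foxd1-only class, the one just inside the Foxd1 limit, went against its name with 13 stroma and 14 progenitor markers and held Crym at 428, Eya1 at 72.6 and Cited1 at 71.7 RPKM. Cells 4, 21 and 52 of the Six2-only class went against theirs. Cell 4 held Rgs5, a pericyte gene, at 719 RPKM and Pdgfrb at 106, and cell 21, the lowest in Six2, held Pdgfra at 29.4 and Cited1 at 226 RPKM. These 4 cells were picked by their marker counts, so leaving them out fixes the direction for the marker genes. It can also move other genes that vary with the markers between cells, and nothing is read from either. Of the 25 leading genes outside both marker lists, 12 had a log2 ratio of larger size without the 4 cells and 13 one of smaller size. Crabp1 was at 6.35, Anxa2 at 5.42 and Nfib at 4.54 without them, against 4.96, 4.04 and 3.30 with all cells, while Shisa2 was at -3.51 and Fam132a at -2.81, against -4.43 and -3.61. Of the cells left out, cells 4 and 21 held Crabp1 at 89.6 and 92.7, Anxa2 at 170.0 and 82.4 and Nfib at 37.3 and 32.3 RPKM.

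**Figure D2:**
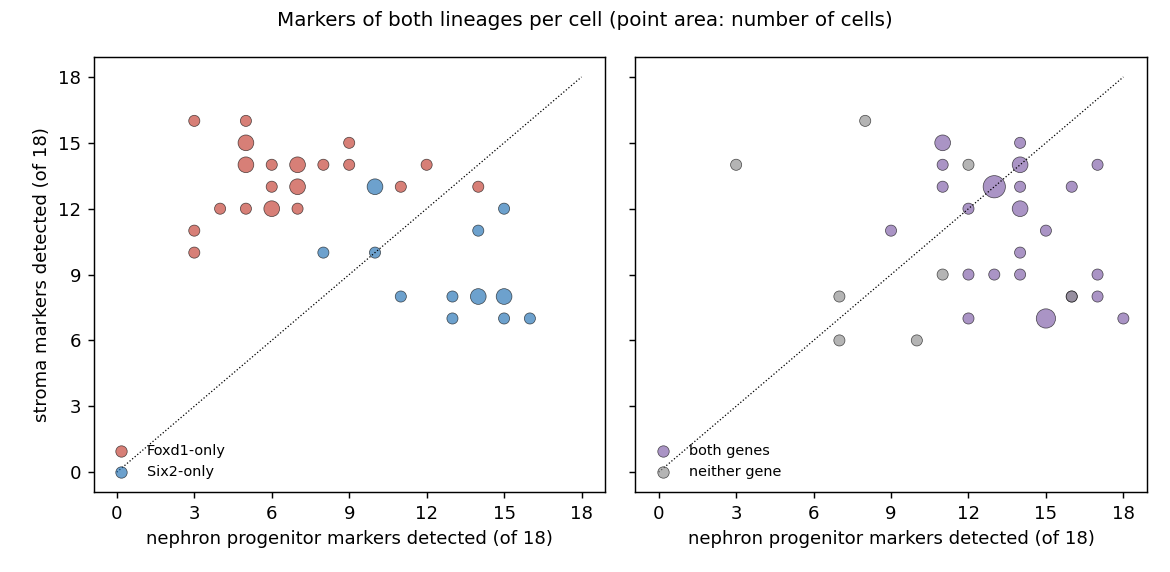
Number of the 18 stroma markers (vertical axis) against the number of the 18 nephron progenitor markers (horizontal axis) detected per cell, with point area showing how many cells share a position; the dotted line marks equal numbers. Of the Foxd1-only cells, 24 of 25 lie above the line, and of the Six2-only cells 11 of 15 lie below it (left panel); cells with both genes or neither lie on both sides (right panel).

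Depth overlapped between the classes. Foxd1-only cells detected 3458 to 6845 genes (median 6087) and Six2-only cells 4342 to 7100 (median 5847). Read depth was estimated from the steps between low values at 653285 to 3906250 reads per cell in Foxd1-only cells (median 1980390) and 304768 to 3906250 in Six2-only cells (median 1847770), which is approximate. Markers of other cell types varied between single cells. The 3 endothelial genes in the table summed to a median of 0 RPKM in both classes, with highest sums of 86.4 in Foxd1-only cells and 39.3 in Six2-only cells. The 10 ureteric bud genes summed to medians of 2.26 in Foxd1-only and 0.395 in Six2-only cells and to at most 96.7 in Foxd1-only and 129.8 in Six2-only cells, with Ret and Cdh1 detected in no cell of either class. The 7 cells dropped for high Mal2 detected 7 to 9 of these 10 genes each. Low bud values in the kept cells are therefore no check apart from that filter. The 10 mural genes summed to medians of 82.2 in Foxd1-only and 24.9 in Six2-only cells and to at most 759 in Foxd1-only and 735 in Six2-only cells. The 8 genes of induced nephron summed to medians of 48.4 in Foxd1-only and 58.5 in Six2-only cells and to at most 196 in Foxd1-only and 513 in Six2-only cells. The part of such cells in the results was not tested, and counts without the cells that detected Wnt4, Lhx1 or Pax8 are given below.

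Of 12357 genes, 11314 had a mean of 1 RPKM or more in either class, and 5729 of these had a log2 ratio above 0 and 5585 below, with a median of 0.01. The log2 ratio is that of the class means with 1 RPKM added, Foxd1-only over Six2-only. A gene is called when this ratio and the difference of the mean log2(RPKM + 1) are both at least 1 in the same direction, its mean is 10 RPKM or more in the higher class, and at least 50% of that class detect it. This is a rule of size and not a test, and in sparse values of single cells a gene can pass it by differences between cells alone. It called 380 genes higher in Foxd1-only cells (3.36%) and 412 lower in them (3.64%). Counts of called genes in the gene lists stand beside these shares, and nothing is read from a count near them. With no filter on low values 597 and 624 genes passed. Without cells 4, 21, 52 and 68, 434 genes were called higher in Foxd1-only cells, of which 320 were among the 380, and 558 lower, of which 335 were among the 412. Over 14 alternatives the shared genes were fewest with cells of at least 5500 detected genes alone, at 271 of the 380 (71.3%) and 264 of the 412 (64.1%). Of 108 called genes that are named or stand in a gene list, 62 were called under all 14 alternatives and 46 were not called under at least 1. With no filter on low values, the ratio alone or the difference of mean log2 values alone, a called gene cannot lose its call. Each of these alternatives only drops conditions of the rule. No called gene parted the classes without overlap, so genes are described by how many cells detect them and by the share of the 375 pairs of a Foxd1-only and a Six2-only cell in which the Foxd1-only cell is higher. A ratio of at least 3 was reached by 50 genes higher in Foxd1-only cells and by 17 genes higher in Six2-only cells. Breadth varied within each class. Of the genes higher in Foxd1-only cells, 31 of 380 were detected in all 25 of them, and of the genes higher in Six2-only cells, 55 of 412 were detected in all 15. None of the 9 mural, 5 ureteric bud, 4 induced nephron, 3 endothelial, 2 podocyte, 2 neural and 1 blood markers with a mean of 1 RPKM or more was called. Their list medians were 0.47, 1.41, -1.57, 2.13, 0.74, 0.35 and -0.54. Of 11 cell cycle inhibitors and D cyclins none was called (list median -0.09).

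The gene ranked first for the Foxd1-only cells was Crabp1, which encodes a cellular retinoic acid binding protein (chromosome 9, 54612615 to 54620916, mm9). Crabp1 ranged over 3.94 to 2744 RPKM (median 392) in Foxd1-only cells, against 0 to 92.7 RPKM (median 2.00) in Six2-only cells. It was detected in all 25 Foxd1-only cells and in 8 of 15 Six2-only cells, with a log2 ratio of 4.96, and the Foxd1-only cell was higher in 96.5% of pairs. Values over 100 RPKM were present in 21 of 25 Foxd1-only cells (84.0%, exact 95% interval 63.9 to 95.5%). Such values were present in 0 of 15 Six2-only cells (exact 95% interval 0 to 21.8%). All such intervals cover counting error only. Other genes of retinoic acid handling were higher to a lesser degree. Aldh1a2 makes retinoic acid. Aldh1a2 ranged over 0.964 to 1303 RPKM (median 387) in Foxd1-only cells, against 0.674 to 408 RPKM (median 38.6) in Six2-only cells, a log2 ratio of 2.40. Dhrs3, which turns retinaldehyde back into retinol, had a log2 ratio of 1.32 with means of 395 ± 360.3 in Foxd1-only and 158 ± 164 RPKM in Six2-only cells. Of 9 genes in the retinoic acid list, 2 were called higher in Foxd1-only cells and 0 lower (list median 0.78), and Dhrs3 was not called under 1 of 14 alternatives. The receptor genes Rara and Rarb, looked at after their values were seen, had ratios of 1.22 and 1.33 and were not called.

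Transcription factors of mesenchyme were called higher in Foxd1-only cells for 5 of 20 genes and lower for 1 (list median 1.23). Nfib and Nfia, nuclear factor I genes, were detected in every Foxd1-only cell. Nfib ranged over 3.75 to 207 RPKM (median 54.2) in Foxd1-only cells, against 0.0342 to 37.3 RPKM (median 0.318) in Six2-only cells (ratio 3.30, 95.5% of pairs). Nfia ranged over 1.97 to 94.0 RPKM (median 28.4) in Foxd1-only cells, against 0 to 40.8 RPKM (median 0.0948) in Six2-only cells (ratio 2.67). Among Six2-only cells, 5 detected Nfib and 3 detected Nfia. Ebf2, an early B-cell factor gene also active in mesenchyme, was present in a part of the Foxd1-only cells. Ebf2 ranged over 0 to 259.6 RPKM (median 15.7) in Foxd1-only cells, against 0 to 0.145 RPKM (median 0) in Six2-only cells, and 16 of 25 Foxd1-only cells detected it (64.0%, 42.5 to 82.0%) against 0 of 15 Six2-only cells. Its relative Ebf1 was detected in 19 Foxd1-only and 2 Six2-only cells (ratio 2.30). Klf4, a zinc finger factor, was detected in 13 Foxd1-only and 2 Six2-only cells, so that its ratio of 2.71 rests on fewer cells, and it was not called under 5 of 14 alternatives. The fifth was Tcf12, at a ratio of 1.67. Foxp1, a forkhead factor, ran the other way, with a mean of 14.8 ± 24.6 RPKM in Foxd1-only and 31.0 ± 15.5 in Six2-only cells (ratio -1.02), and was not called under 5 of 14 alternatives. Fli1, an Ets factor best known from endothelium and blood, was detected in 23 Foxd1-only and 2 Six2-only cells (ratio 3.26). Ldb2, a cofactor of LIM domain factors, had a median of 104 RPKM in Foxd1-only cells and 0.179 in Six2-only cells (ratio 3.25).

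Among the 18 stroma markers 8 were called higher in Foxd1-only cells and 0 lower (list median 1.29, against 0.01 for all genes). Ratios were above 0 for 15 of the 18 and below 0 for 3, Penk (-2.29), Alx1 (-0.60) and Pdgfrb (-0.07). Penk and Alx1 were looked at after their values were seen and were not called. Pdgfra is the receptor for PDGF on mesenchyme (chromosome 5, 75548316 to 75594229). Pdgfra ranged over 0 to 76.9 RPKM (median 17.0) in Foxd1-only cells, against 0 to 29.4 RPKM (median 0) in Six2-only cells. It was detected in 20 of 25 Foxd1-only cells and in 1 of 15 Six2-only cells, cell 21. Sfrp1 ranged over 0 to 339 RPKM (median 30.9) in Foxd1-only cells, against 0 to 53.8 RPKM (median 0.169) in Six2-only cells. Sfrp1 encodes a secreted Wnt antagonist and was detected in 21 Foxd1-only and 6 Six2-only cells (ratio 3.39). Fat4, Nr2f1 and Snai2 were called as well, with ratios of 1.64, 1.48 and 1.25, and Snai2 was not called under 2 of 14 alternatives. The stroma genes Meis1 and Tcf21 were not called. Meis1, a homeodomain factor, had 207 ± 114 RPKM in Foxd1-only cells and 111 ± 71.4 in Six2-only cells and was detected in every cell of both (ratio 0.89, not called). Tcf21, a bHLH factor, averaged 118 ± 170.2 RPKM in Foxd1-only and 111 ± 104 in Six2-only cells (ratio 0.10). Pdgfrb, looked at after its values were seen, was detected in 16 Foxd1-only and 2 Six2-only cells, and its mean was 7.55 RPKM in Foxd1-only cells and 7.95 in Six2-only cells, where cell 4 held 106 RPKM.

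Matrix genes leaned to the Foxd1-only cells, with 7 of 19 fibrillar matrix genes called higher and 1 lower (list median 1.79). Col1a2 ranged over 0.531 to 179 RPKM (median 37.7) in Foxd1-only cells, against 0 to 35.6 RPKM (median 0.206) in Six2-only cells. Col1a2, a chain of type I collagen, was detected in 23 Foxd1-only and 4 Six2-only cells (ratio 3.01). Col1a1, its partner chain, and Col3a1, type III collagen, had ratios of 3.02 and 2.63, with Col1a1 at a median of 29.8 RPKM in Foxd1-only and 0.201 in Six2-only cells and Col3a1 at 25.5 in Foxd1-only and 0.216 in Six2-only cells. Pcolce, which enhances the trimming of procollagens, was detected in 20 of 25 Foxd1-only and 1 of 15 Six2-only cells (ratio 3.77). The remaining called genes were Col5a2 at 3.13 (not called under 3 of 14 alternatives), Fn1 at 2.45 and Fbn2 at 1.54. Versican ran against its list. Vcan ranged over 0.170 to 159 RPKM (median 24.8) in Foxd1-only cells, against 28.2 to 214 RPKM (median 112) in Six2-only cells (ratio -1.68), and every Six2-only cell held it at 28.2 RPKM or more. Basement membrane genes were divided, with 3 of 13 called higher (Fras1 1.77, Lama4 1.33, Nid1 1.12) and the type IV collagen chain Col4a1 lower (-1.13; list median 0.16). Lama4 was not called under 4 of 14 alternatives and Col4a1 not called under 3 of 14 alternatives.

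Other leading genes of the Foxd1-only cells encode membrane, secreted and cytoskeletal proteins. Anxa2 binds membranes and actin in the presence of calcium. Anxa2 ranged over 0.406 to 847 RPKM (median 364) in Foxd1-only cells, against 0 to 170.0 RPKM (median 0.534) in Six2-only cells (ratio 4.04, 95.5% of pairs). A single Foxd1-only cell lay below 1 RPKM, and cells 4 and 21 held 170.0 and 82.4 RPKM among the Six2-only cells. Tmtc4 ranged over 0.990 to 233 RPKM (median 55.1) in Foxd1-only cells, against 0 to 11.0 RPKM (median 0.434) in Six2-only cells (ratio 4.39). Tmtc4 encodes a protein of O-mannosylation in the endoplasmic reticulum. Mme, the cell surface peptidase neprilysin, was detected in 21 Foxd1-only and 2 Six2-only cells (ratio 3.98). AW551984, whose product is little studied, was detected in 20 Foxd1-only and 3 Six2-only cells (ratio 4.32). Dnm3os, the noncoding host of a microRNA cluster antisense to Dnm3, was detected in 23 Foxd1-only and 4 Six2-only cells (ratio 3.67), and because the library kit does not mark strand its reads cannot be told apart from those of Dnm3. Vcam1, an adhesion molecule that binds integrins, was detected in 16 Foxd1-only cells at up to 357 RPKM. It was detected in 0 of 15 Six2-only cells (exact 95% interval 0 to 21.8%). The cytoskeleton list had 8 of 17 entries called higher and Tpm2, a tropomyosin, lower (list median 1.19). Vimentin, the intermediate filament of mesenchyme, averaged 299 ± 176 RPKM in Foxd1-only and 79.3 ± 123 in Six2-only cells (ratio 1.90), and talin (Tln1), which ties integrins to actin, had a ratio of 1.94. Cald1 stands in the table with 2 entries, both called (2.84 and 2.12), and how reads were shared between them is uncertain. Tpm2 averaged 23.5 ± 24.8 RPKM in Foxd1-only cells and 87.4 ± 55.0 in Six2-only cells (ratio -1.85).

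Secreted signals called higher in Foxd1-only cells included Cxcl12, the chemokine bound by the receptor Cxcr4. Cxcl12 ranged over 0.226 to 238 RPKM (median 44.0) in Foxd1-only cells, against 0 to 29.8 RPKM (median 0.362) in Six2-only cells (ratio 3.22). It was detected in 23 Foxd1-only and 6 Six2-only cells. Cxcr4 itself, looked at after its values were seen, was detected in 1 Foxd1-only and 7 Six2-only cells and was not called. Within the guidance list 5 of 21 genes were called higher and 1 lower (list median 0.37). Efna5, an ephrin ligand tethered to the membrane, was detected in every Foxd1-only cell with a mean of 183 ± 141 RPKM, against 47.6 ± 39.2 in Six2-only cells. The other ratios were 2.11 for Sema6a, a membrane semaphorin, 1.66 for Efnb1 and 1.29 for the ephrin receptor Epha4, which was not called under 3 of 14 alternatives. Slit2 was lower (ratio -1.94) but not called under 5 of 14 alternatives, while Robo2, a receptor for Slit proteins, was lower too in Foxd1-only cells. Robo2 ranged over 0.0265 to 49.6 RPKM (median 1.79) in Foxd1-only cells, against 3.05 to 76.5 RPKM (median 43.9) in Six2-only cells (ratio -2.49), and the Foxd1-only cell was higher in 5.33% of pairs. In the BMP and TGF beta list the ligand genes Tgfb2 and Tgfb3 were called higher (ratios 2.15 and 2.45) and none of 18 lower, with a list median of -0.03, and Tgfb3 was not called under 2 of 14 alternatives. Of 8 genes known as YAP targets or partners, the matricellular gene Cyr61 was called (ratio 2.02; list median 1.08).

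Growth genes under imprinting were called higher in 3 of 13 cases and lower in none (list median 0.95). Plagl1, a zinc finger factor expressed from the paternal allele, was the most marked. Plagl1 ranged over 0.429 to 624 RPKM (median 62.2) in Foxd1-only cells, against 0.0903 to 56.6 RPKM (median 0.877) in Six2-only cells (ratio 3.64). Igf2, the fetal growth factor, and Peg3, a zinc finger factor, were detected in every cell of both classes. Igf2 averaged 149 ± 110.0 RPKM in Foxd1-only and 59.2 ± 29.8 in Six2-only cells (ratio 1.32, not called under 2 of 14 alternatives). Peg3 averaged 286 ± 228 RPKM in Foxd1-only and 123 ± 93.7 in Six2-only cells (ratio 1.21, not called under 3 of 14 alternatives). Sepp1, a secreted selenium carrier, and Txnip, an inhibitor of thioredoxin, were called among 8 redox genes (ratios 2.74 and 2.60; list median 0.18). Ifitm3 and B2m, genes of innate and adaptive immunity, were called among 6 interferon-related genes (1.81 and 1.07; list median 0.92), although Ifitm3 was detected in only 14 Foxd1-only cells. Without the cells that detected Wnt4, Lhx1 or Pax8, 0 of these 6 genes were called. Klf6 was the 1 called gene of 9 in the immediate early list (1.63; list median 0.00), and it was not called under 5 of 14 alternatives.

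**Figure D3:**
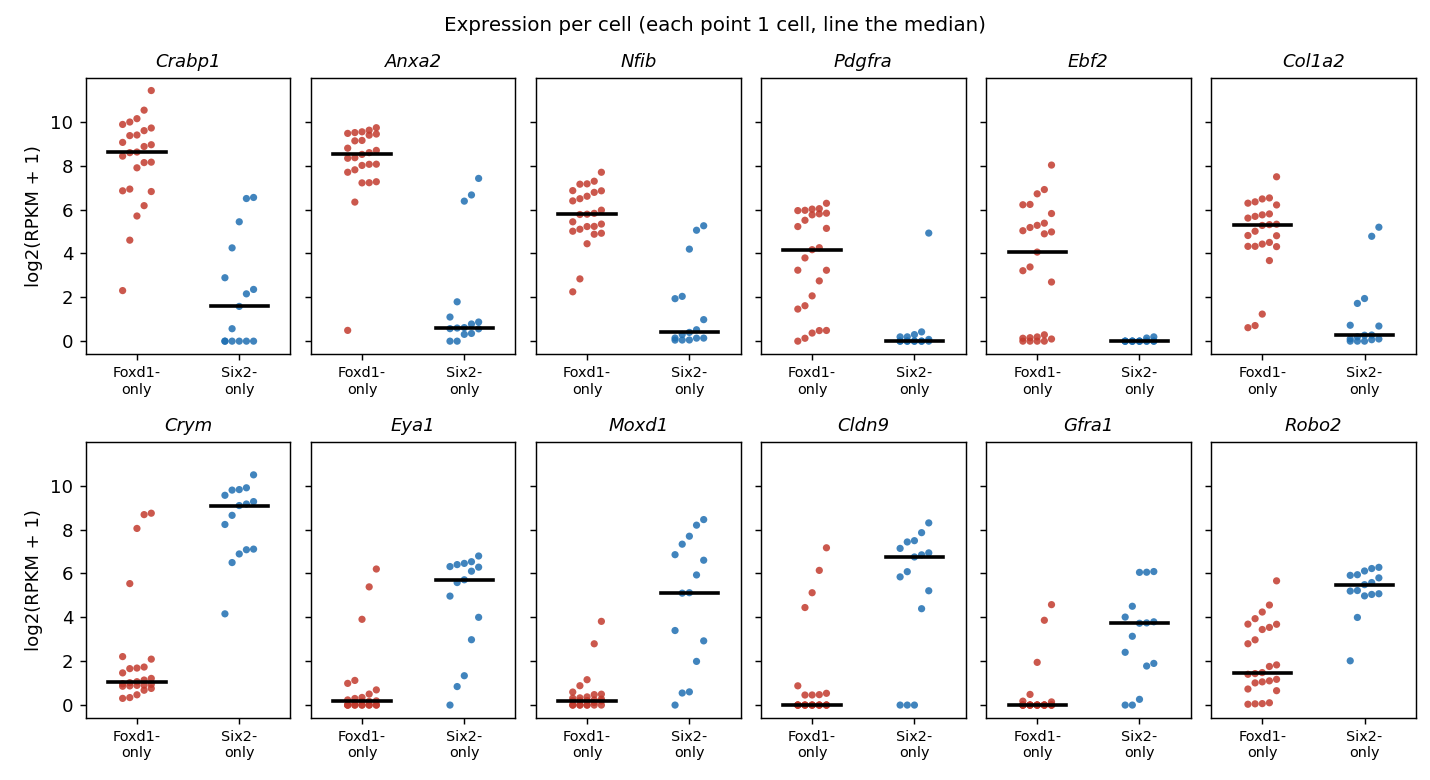
Expression of 12 genes per cell as log2(RPKM + 1), Foxd1-only cells (25 points, red) left of Six2-only cells (15 points, blue), with the median as a black line. The upper 6 genes have higher medians in Foxd1-only cells and the lower 6 lower medians, and single cells of each class lie within the range of the other.

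On the progenitor side, Crym ranked first among the markers. It encodes mu-crystallin, a thyroid hormone binding protein marking the cap mesenchyme (chromosome 7, 127329898 to 127345502). Crym ranged over 0.235 to 428 RPKM (median 1.09) in Foxd1-only cells, against 16.9 to 1439.6 RPKM (median 545) in Six2-only cells (ratio -3.45, difference of mean log2 values -6.21). Over 100 RPKM were held by 3 of 25 Foxd1-only cells (12.0%, 2.55 to 31.2%) and 13 of 15 Six2-only cells (86.7%, 59.5 to 98.3%), and the Foxd1-only cell was higher in 5.33% of pairs. Of 18 nephron progenitor markers, 10 were called lower in Foxd1-only cells and 0 higher (list median -1.85). Eya1, the cofactor of Six2 and its relatives (chromosome 1, 14159039 to 14300280), was detected in 4 of 25 Foxd1-only and 13 of 15 Six2-only cells. Eya1 ranged over 0 to 72.6 RPKM (median 0.122) in Foxd1-only cells, against 0 to 110.0 RPKM (median 51.3) in Six2-only cells (ratio -3.02). The highest Foxd1-only value was that of cell 68. Spock2, a secreted proteoglycan, was detected in 1 Foxd1-only and 14 Six2-only cells (ratio -2.86). Meox2, Rspo1, Itga8 and Elavl4 were called too, with ratios of -3.55, -3.69, -1.91 and -1.82, and Rspo1 was not called under 4 of 14 alternatives. Osr1, an early factor of the intermediate mesoderm, was detected in 5 Foxd1-only and 11 Six2-only cells (ratio -1.58), and Sall1, a zinc finger factor needed by progenitors, averaged 43.8 ± 59.3 RPKM in Foxd1-only and 93.7 ± 69.3 in Six2-only cells (ratio -1.08). Sall1 was not called under 2 of 14 alternatives.

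Other progenitor genes did not part the classes or did so unevenly. Cited1, a coactivator of the least committed progenitors, was detected in 4 Foxd1-only and 7 Six2-only cells, with means of 3.67 ± 14.3 RPKM in Foxd1-only and 93.3 ± 177 in Six2-only cells. Its ratio was -4.34, and it missed the call because fewer than 50% of Six2-only cells detected it. Wt1 ranged over 0.374 to 172 RPKM (median 29.8) in Foxd1-only cells, against 0.593 to 159.7 RPKM (median 42.9) in Six2-only cells (ratio -0.29). Wt1, a zinc finger factor of the whole nephrogenic mesenchyme, was detected in 23 Foxd1-only and 14 Six2-only cells. Gdnf, the ligand that draws out the ureteric bud, had a mean of 20.0 ± 31.6 RPKM in Foxd1-only cells and 18.5 ± 25.9 in Six2-only cells, with detection in 13 Foxd1-only and 9 Six2-only cells (ratio 0.10). Pax2, a paired-box factor of progenitors and bud, was detected in 2 cells of each class. Its ratio of 1.35 ran against its list, with a difference of mean log2 values of 0.06. Pax2 and Gdnf were the 2 of 18 progenitor markers with a ratio above 0, and 16 were below. Genes of induction were detected in few cells. Wnt4, the signal of epithelial conversion, was listed at 0 in every Foxd1-only cell and detected in 2 Six2-only cells, while Lhx1 was detected in 1 Foxd1-only and 3 Six2-only cells, and Pax8 in 3 Foxd1-only and 7 Six2-only cells. Pax8 had a ratio of -4.08 and missed the call for the same reason as Cited1. At least 1 of these 3 genes was detected in 3 of 25 Foxd1-only cells (12.0%, 2.55 to 31.2%) and in 8 of 15 Six2-only cells (53.3%, 26.6 to 78.7%).

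Beyond the markers, Moxd1 ranked first for the Six2-only cells. It encodes a relative of dopamine beta-hydroxylase. Moxd1 ranged over 0 to 13.1 RPKM (median 0.152) in Foxd1-only cells, against 0 to 349.6 RPKM (median 33.8) in Six2-only cells (ratio -5.55). It was detected in 3 of 25 Foxd1-only and 12 of 15 Six2-only cells. Tpbg, the trophoblast glycoprotein 5T4, was detected in 7 Foxd1-only and 14 Six2-only cells (ratio -3.87). Shisa2, an inhibitor of Wnt and FGF receptor maturation, was detected in 1 Foxd1-only cell and 12 Six2-only cells (ratio -4.43). Rasef, a Rab-family GTPase, was detected in 0 of 25 Foxd1-only cells (exact Clopper-Pearson interval 0 to 13.7%) and in 8 of 15 Six2-only cells. Cldn9 ranged over 0 to 143 RPKM (median 0) in Foxd1-only cells, against 0 to 315 RPKM (median 107) in Six2-only cells (ratio -3.16). Cldn9, a tight junction claudin, was detected in 4 of 25 Foxd1-only and 12 of 15 Six2-only cells. With Spint2, an inhibitor of membrane serine proteases, at -2.98, it made 2 of 17 cell junction genes called lower, against Vcam1 higher (list median -0.10).

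Signalling genes called lower in Foxd1-only cells came from several families in small numbers, beside 3.64% of all measured genes called lower. Gfra1, the GDNF co-receptor that Ret needs, was detected in 3 Foxd1-only and 12 Six2-only cells. Gfra1 ranged over 0 to 22.9 RPKM (median 0) in Foxd1-only cells, against 0 to 66.9 RPKM (median 12.3) in Six2-only cells (ratio -2.97). Of 16 FGF genes 2 were called lower and 0 higher (list median -0.35). Fgf10 ranged over 0 to 41.3 RPKM (median 0) in Foxd1-only cells, against 0 to 116 RPKM (median 18.5) in Six2-only cells (ratio -2.45). Fgf10, a ligand acting on bud epithelium, was detected in 4 Foxd1-only and 12 Six2-only cells, and Etv5, an Ets factor downstream of FGF and GDNF signals, in 15 Foxd1-only and 12 Six2-only cells (ratio -1.45). Of 10 Notch genes, the receptor Notch2 and the DNA-binding partner Rbpj were called lower (ratios -1.30 and -1.10; list median -1.18), and Rbpj was not called under 5 of 14 alternatives. Notch2 was detected in every cell of both classes, at 6.49 ± 3.77 RPKM in Foxd1-only and 17.5 ± 12.4 RPKM in Six2-only cells. Rspo3, which potentiates Wnt signals, was the 1 called gene of 16 in the Wnt list (-1.19, list median -0.13) and was not called under 3 of 14 alternatives. Pdgfc, a ligand of the Pdgfra receptor looked at after its values were seen, was called lower, with detection in 6 Foxd1-only and 13 Six2-only cells (ratio -2.44).

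Further genes called lower in Foxd1-only cells include a few members of the chromatin, posterior Hox and glycolysis lists. Of all measured genes, 3.64% were called lower. Of 16 progenitor transcription factor and chromatin genes, Sall2, a relative of Sall1, and Phf19, a Polycomb subunit, were called (ratios -1.17 and -2.17, list median -0.48). Each was not called under 2 of 14 alternatives. Sall2 was detected in 15 Foxd1-only cells and in all 15 Six2-only cells. Among 11 posterior Hox genes, Hoxa11 and Hoxb9 were called (-1.39 and -1.96), while 6 had ratios above 0 and the list median was 0.02. Hoxb9 was not called under 2 of 14 alternatives. In glycolysis 2 of 18 genes were called, the enolase gene Eno3 and the hexokinase gene Hk2 (-1.47 and -1.12; list median -0.28). Eno3 ranged over 0 to 268 RPKM (median 0.609) in Foxd1-only cells, against 0 to 212 RPKM (median 80.6) in Six2-only cells. Eno3 was detected in 9 Foxd1-only and 13 Six2-only cells. Acadvl, an enzyme of fatty acid oxidation, Abt1, an activator of basal transcription, and Zfyve19, a midbody protein of the abscission checkpoint, were among the 15 leading genes, with ratios of -2.64, -2.83 and -3.47. So were Tnni1, a troponin subunit, at -4.12, which was not called when cells with high Mal2 were kept, and Fam132a, a secreted protein of the C1q and TNF related family, at -3.61. Snord47, a small nucleolar RNA in an intron of Gas5, had a ratio of -3.33, while Gas5 itself had -0.84 and was not called. The Snord47 entry runs only from 162968223 to 162968287 on chromosome 1, so a few reads make a high RPKM. Its median of 43.0 RPKM in Six2-only cells may rest on few reads. Reads of Snord47 cannot be told apart from those of unspliced Gas5 RNA.

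Of 20 genes of G2 and mitosis, 8 were called lower in Foxd1-only cells and 0 higher, and 18 had a ratio below 0 (list median -0.80), while none of 18 S phase genes was called (list median 0.32). Ube2c, a ubiquitin enzyme of mitotic exit, was detected in 15 Foxd1-only and 12 Six2-only cells. Ube2c ranged over 0 to 1148 RPKM (median 10.5) in Foxd1-only cells, against 0 to 1509 RPKM (median 220.0) in Six2-only cells (ratio -1.71). The polo kinase Plk1 and the anaphase activator Cdc20 had ratios of -2.28 and -2.01. Both classes mixed cells with many and cells with few of these genes, from 2 to 20 detected per Foxd1-only cell (median 12) and from 3 to 20 per Six2-only cell (median 19). At least 50% of the list was detected in 13 of 25 Foxd1-only cells (52.0%, 31.3 to 72.2%) and in 9 of 15 Six2-only cells (60.0%, 32.3 to 83.7%), and these intervals overlap. The G2/M calls also moved with the cells taken. Without the 3 Foxd1-only and 8 Six2-only cells that detected Wnt4, Lhx1 or Pax8, 0 of the 20 genes were called and the list median was -0.35.

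**Figure D4:**
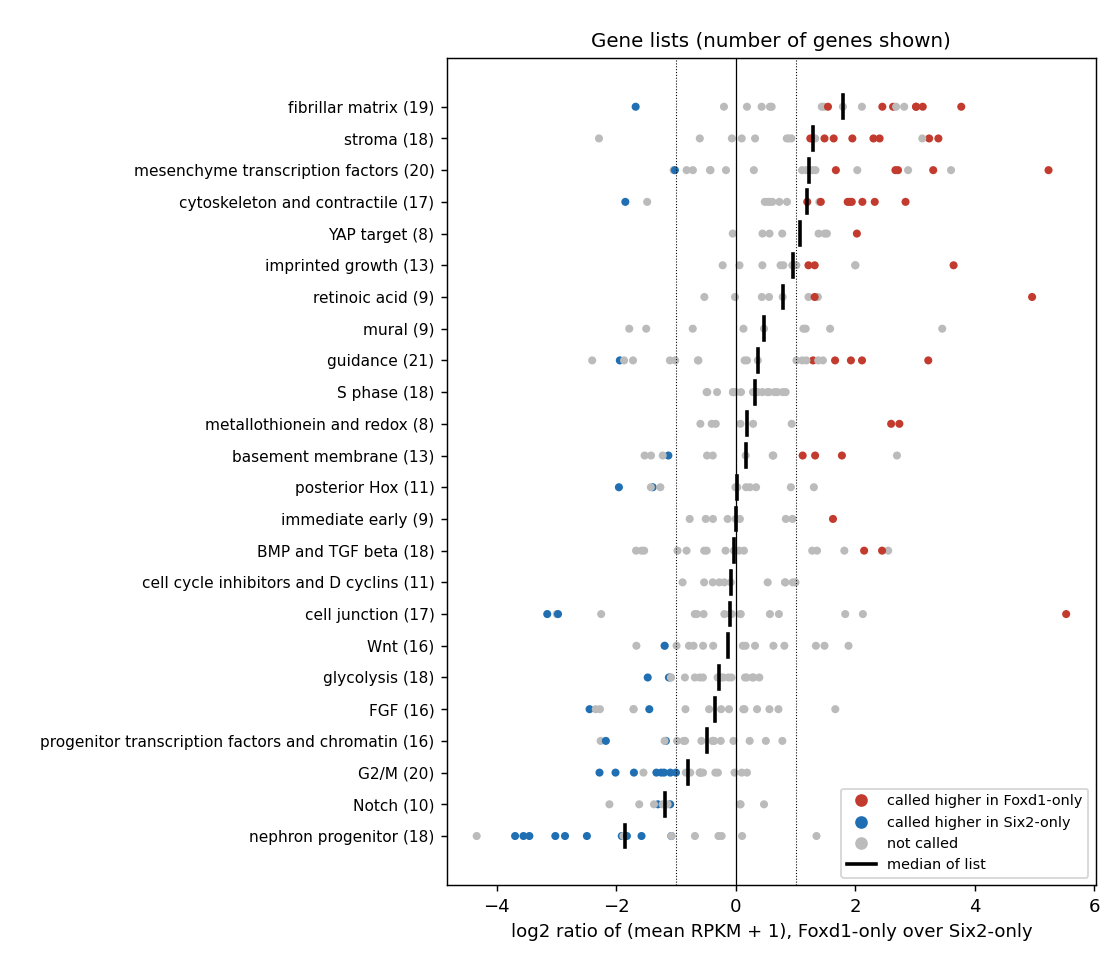
Log2 ratio of (mean RPKM + 1), Foxd1-only over Six2-only, for the members of the gene lists with 8 or more measured genes (number in brackets), with lists ordered by their median (black bar); red points were called higher in Foxd1-only cells, blue points higher in Six2-only cells, and dotted lines mark ratios of -1 and 1. The fibrillar matrix list has the highest median (1.79) and the nephron progenitor list the lowest (-1.85).

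Promoters are shown for 4 called genes, for retinoid binding and PDGF reception on the Foxd1-only side and for the GDNF co-receptor and an FGF ligand on the Six2-only side. Signal exchange between the lineages was not tested. Each runs from 250 bases before to 50 after the RefSeq gene start on GRCm38.p6, a later build than that of the expression table. They lie at chr9:54764498-54764797 on the plus strand (Crabp1), chr5:75152001-75152300 on the plus strand (Pdgfra), chr19:58455349-58455648 on the minus strand (Gfra1) and chr13:118714449-118714748 on the plus strand (Fgf10). Capitals mark exact matches, on either strand, to a forkhead motif (TGTTTAC), a sine oculis motif (TCAGGTT), a Meis motif (TGACAG) or a TEAD motif (GGAATG), the factor families of Foxd1, Six2, Meis1 and the YAP pathway.
Crabp1: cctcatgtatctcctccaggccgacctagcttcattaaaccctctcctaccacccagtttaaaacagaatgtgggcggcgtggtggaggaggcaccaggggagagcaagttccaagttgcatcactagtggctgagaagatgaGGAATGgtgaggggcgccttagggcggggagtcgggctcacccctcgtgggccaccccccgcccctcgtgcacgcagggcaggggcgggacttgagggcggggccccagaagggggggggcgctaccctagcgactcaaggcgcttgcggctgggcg
Pdgfra: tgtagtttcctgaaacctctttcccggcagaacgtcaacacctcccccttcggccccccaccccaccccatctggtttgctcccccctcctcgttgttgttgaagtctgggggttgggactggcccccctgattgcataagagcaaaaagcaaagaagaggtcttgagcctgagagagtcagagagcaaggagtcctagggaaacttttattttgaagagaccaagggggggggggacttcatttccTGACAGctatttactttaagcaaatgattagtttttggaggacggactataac
Gfra1: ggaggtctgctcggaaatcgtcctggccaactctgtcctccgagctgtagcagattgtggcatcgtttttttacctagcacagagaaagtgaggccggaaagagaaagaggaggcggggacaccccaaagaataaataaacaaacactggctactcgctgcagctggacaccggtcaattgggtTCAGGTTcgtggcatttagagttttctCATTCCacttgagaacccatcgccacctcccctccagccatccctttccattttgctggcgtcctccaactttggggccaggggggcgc
Fgf10: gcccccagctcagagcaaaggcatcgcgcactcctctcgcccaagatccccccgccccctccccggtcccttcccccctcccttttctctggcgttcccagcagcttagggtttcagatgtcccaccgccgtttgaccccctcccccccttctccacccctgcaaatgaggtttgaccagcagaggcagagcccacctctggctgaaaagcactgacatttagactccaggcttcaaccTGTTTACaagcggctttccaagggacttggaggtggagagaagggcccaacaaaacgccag
Crabp1 held 1 TEAD match, Pdgfra 1 Meis match, Gfra1 1 sine oculis and 1 TEAD match, and Fgf10 1 forkhead match. None of these matches overlapped another. Over 27025 promoters of this length, the forkhead motif was present in 3.55%, the sine oculis motif in 4.04%, the Meis motif in 19.3% and the TEAD motif in 14.6%. A match describes letters and is not a binding site. Motif shares were not compared between the called lists. Of the genes called higher in Foxd1-only cells 75.5%, and of those called lower 78.2%, matched an entry in the promoter table.

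The cells that held both genes or neither were not used to choose the called genes. For the 380 genes higher in Foxd1-only cells, the median over genes of the mean log2(RPKM + 1) was 3.41 in Foxd1-only cells, 2.67 in cells with both genes, 2.22 in cells with neither and 1.60 in Six2-only cells. For the 412 genes lower in Foxd1-only cells it was 1.67 in Foxd1-only cells, 2.80 in cells with both, 2.67 in cells with neither and 3.41 in Six2-only cells. The genes were chosen for differing between the Foxd1-only and Six2-only cells, so nothing is read from the place of the other cells between them. Crabp1 over 100 RPKM was present in 21 of 25 Foxd1-only cells, 16 of 31 cells with both, 0 of 8 with neither and 0 of 15 Six2-only cells. Crym over 100 RPKM was present in 3 of 25 Foxd1-only cells, 29 of 31 cells with both, 4 of 8 with neither and 13 of 15 Six2-only cells. Pdgfra and Crym were detected together in 12 of 25 Foxd1-only cells, 17 of 31 cells with both, 0 of 8 with neither and 1 of 15 Six2-only cells. Chambers were inspected for single cells, no doublet caller was run, and the part of doublets in the cells with both genes was not tested.

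**Figure D5:**
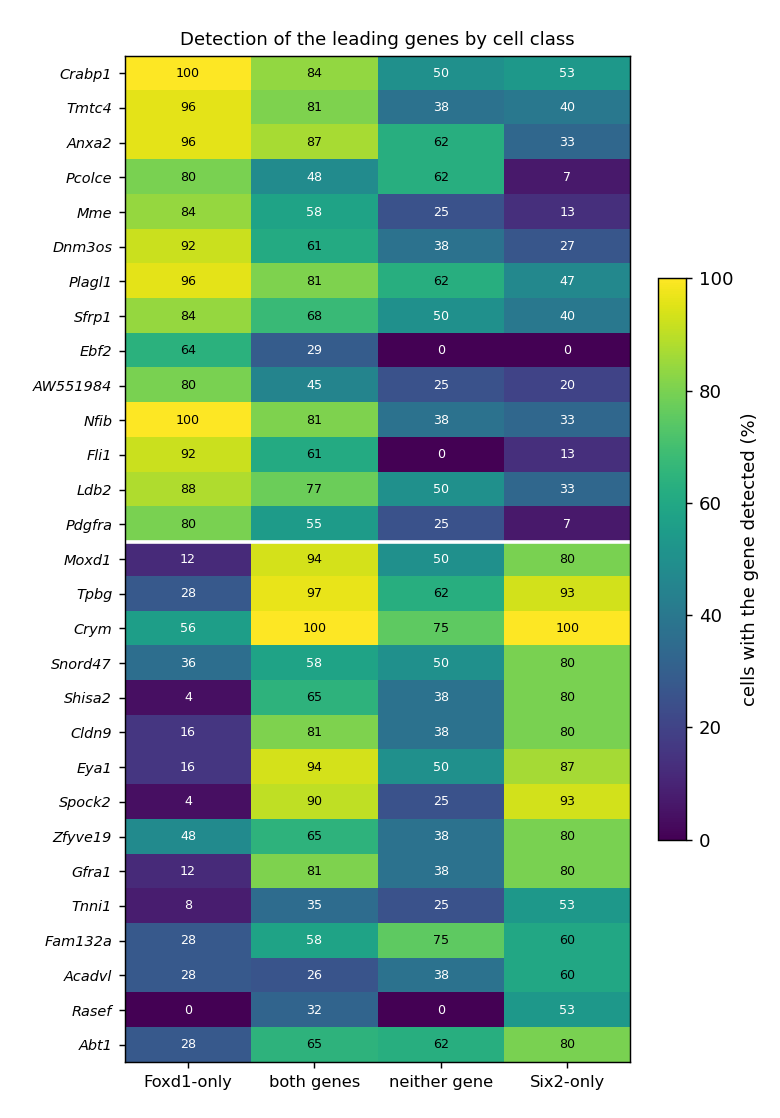
Percent of cells in which leading genes of either direction were detected (1 RPKM or more), by cell class; the upper 14 genes were called higher in Foxd1-only cells and the lower 15 higher in Six2-only cells. For cells with both genes, Crym and Eya1 were detected in 31 and 29 of 31 cells, and Crabp1 and Nfib in 26 and 25 of 31.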

How the data were processed

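Expression was read from the authors' deposited table of RPKM values for 12360 genes in 86 cells, in which every gene reaches 3 RPKM in at least 3 cells. The submitters' processing notes name TopHat 1.4.1, DESeq and build mm9 without their roles, and how gene lengths and multiply mapped reads were handled is not given in the sources used here. A second deposited table, of chosen genes in a part of the cells, was not used. Cells are 1 pool, so the classes hold cells and not replicates. Depth was estimated from the commonest spacing of the 1500 lowest values of RPKM times exon length (GENCODE M21, GRCm38, at most the gene's span in the table), is approximate, and is not the authors' read total.

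Class means, log2 ratios with a pseudocount of 1, and differences of mean log2(RPKM + 1) were computed with Python 3.11.15, numpy 2.4.6, pandas 2.3.3 and scipy 1.17.1, and drawn with matplotlib 3.10.9. Foxd1, Six2 and Mal2 were left out. The table holds 26 symbols with 2 entries, which were kept apart. Named genes are the 15 called genes of each direction with the largest smaller value of ratio and difference, up to 4 called members of each of 31 lists in each direction, and 14 genes always named (Meis1, Pdgfra, Col1a2, Tcf21, Cited1, Osr1, Eya1, Sall1, Wt1, Pax2, Gdnf, Pax8, Wnt4 and Lhx1). Called members beyond these 4, and genes said to be so, were added after their values were seen, and 2 called genes are not reported here. The cell classes, lists and rules were chosen with earlier results of these data known. Shares have exact Clopper-Pearson 95% intervals. The calculation was tested on simulated data with known folds. Alternatives changed the limits, pseudocount, filter, averaging, scaling and cells kept.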

Additional observations from a re-analysis of the deposited data

How the results depend on the processing

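The counts of called genes stayed within 1.5 times the reported 380 and 412 under the 14 alternatives tried, except in these cases. With no filter on low values, 597 genes were higher in Foxd1-only cells and 624 in Six2-only cells, and with the difference of mean log2 values alone, 833 were higher in Six2-only cells. The fibrillar matrix median was 2.63 with a limit of 10 RPKM for having Foxd1 or Six2, 2.52 with a pseudocount of 0.1, and 2.75 without cells 4, 21, 52 and 68. The stroma median was 1.92 with the highest cell of each class left out per gene, and 2.52 without those 4 cells, which were chosen on the same markers. That alternative, and one keeping cells with at least 5500 detected genes, were chosen after seeing the data. Of 31 list medians, 13 moved by over 1.5 times under at least 1 alternative and 11 changed sign. The medians ranged over -0.01 to 3.67 for ureteric bud, -1.12 to 5.11 for endothelial, -1.49 to 2.11 for neural, 0.20 to 1.28 for mural, 0.28 to 2.38 for podocyte and -3.09 to -0.20 for induced nephron markers, lists of at most 9 measured genes. Those of guidance (0.05 to 1.15), cell cycle inhibitors (-0.14 to 0.89), redox (-0.66 to 0.37), Notch (-1.38 to -0.50) and YAP genes (0.68 to 1.67) also moved by over 1.5 times. Medians of basement membrane, posterior Hox, Wnt, BMP and TGF beta, cell junction and immediate early genes changed sign without moving that far. Of 108 called genes that are named or stand in a list, 46 were not called under at least 1 alternative, and Foxp1, Klf4, Klf6, Rbpj and Slit2 were not called under 5 of 14. Elavl4, Hoxb9, Phf19, Sall1, Sall2, Snai2, Spint2 and Txnip were not called under 2 of 14. Losses of a call under fewer alternatives are not all marked. Among the 14, no filter on low values and either measure alone only drop conditions, so no call could be lost there. Without cells that detected Wnt4, Lhx1 or Pax8, 276 of the 380 and 272 of the 412 genes were still called, and none of the G2/M or interferon-related list was. The 15 leading genes of each direction were called under every alternative except Tnni1 when cells with high Mal2 were kept. For 93 named genes over 14 alternatives, 1102 of 1302 ratios moved by less than 1.5 times, 200 moved by more, and no called gene changed sign. The 1102 include ratios that could not move. A detection limit of 3 RPKM, no filter on low values and the ratio alone change only the call and leave each ratio as it was. No paired analysis was possible because all cells are 1 group from 1 pool and carry no replicate number. Depth per cell limits what a listed 0 shows, and 1 pool limits every comparison to these cells.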
